A study of Mus musculus with 2 samples.

Results

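The Zfp genes of the mouse encode zinc finger proteins, and 229 of the 17850 gene names on a pair of promoter arrays had a name made of Zfp and a number. Of these, 130 were on array 1 and 99 on array 2. On each array, Cy5 marked DNA pulled down by a CREM antibody and Cy3 marked DNA pulled down by goat IgG. Both precipitates came from formaldehyde-fixed germ cells of adult male C57BL/6 mice, pooled over 5 testes per the labels, and nothing was duplicated. Array 1 holds the Zfp genes of chromosomes 1 to 8 and part of 9, and array 2 those of the remaining chromosomes, so that no gene was compared between arrays. The labels describe 1 protocol for both arrays and do not say whether both were hybridised from the same precipitate, so a difference between arrays cannot be told apart from one between precipitates. The labels name no mutation or treatment, and the control is the IgG channel. A mixture of germ cell stages was precipitated, and because the arrays measure DNA, the labelled cell type could not be set against marker RNAs.

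CREM belongs to the CREB family of transcription factors, which bind the cAMP response element, TGACGTCA, or its core, TGACG. In round spermatids CREM switches on genes needed for making sperm. Most Zfp genes encode proteins with a row of C2H2 zinc fingers that read DNA, and many of those carry a KRAB domain, which recruits the corepressor TRIM28 and with it the machinery of heterochromatin. KRAB zinc finger genes arose by tandem duplication and sit in clusters, whereas many Zfp genes outside clusters encode conserved proteins without that domain. The prefix Zfp marks a fold and not a family with 1 function, and some members bind RNA or transfer ubiquitin.

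The value of a probe was log2 of the CREM signal over the IgG signal, centred on the array's median. Windows were formed from 3 neighbouring probes with no more than 500 bp between successive starts, and the middle of the 3 ratios was taken as the value of the window. Values of 1 or more, at least 2-fold more DNA with CREM, are called the CREM side, and values of -1 or less the IgG side. The IgG side is counted in the same way and given beside it. It is no matched background, since windows of the 2 sides differ in GC content and brightness, as given below. Each gene is described by its highest and its lowest window. A window was found for 225 of the 229 members, and none for Zfp119, Zfp120, Zfp456 and Zfp791, which had 2 to 4 probes each. With 1 array per gene no difference has a replicate check, so no p-value is given. Intervals are 95% exact binomial ones for shares and order-statistic ones for medians, and they cover counting error only. Cy5 and the CREM antibody cannot be told apart, since no dye was swapped.

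The sequences of 5 promoters are shown first because every member with the full element in its promoter had a window on the CREM side. They run from 250 bases before to 50 bases after the RefSeq start, 5′ to 3′ on the gene's strand, with the element in capitals, and are credited to RefSeq, build GRCm38.p6.
Zfp426 promoter (GRCm38.p6, chr9:20492697-20492996, minus strand): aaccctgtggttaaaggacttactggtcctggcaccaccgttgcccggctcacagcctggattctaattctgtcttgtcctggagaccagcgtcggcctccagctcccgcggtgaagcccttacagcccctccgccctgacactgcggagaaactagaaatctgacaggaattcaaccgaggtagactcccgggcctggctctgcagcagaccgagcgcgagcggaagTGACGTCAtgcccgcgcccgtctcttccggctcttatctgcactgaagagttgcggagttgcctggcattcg
Zfp367 promoter (GRCm38.p6, chr13:64152324-64152623, minus strand): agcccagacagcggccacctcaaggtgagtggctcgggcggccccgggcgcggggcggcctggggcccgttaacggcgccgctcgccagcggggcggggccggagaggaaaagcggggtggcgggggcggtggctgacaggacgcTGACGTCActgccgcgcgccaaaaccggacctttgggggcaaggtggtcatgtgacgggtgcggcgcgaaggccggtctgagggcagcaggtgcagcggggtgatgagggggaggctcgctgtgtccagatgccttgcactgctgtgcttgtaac
Zfp595 promoter (GRCm38.p6, chr13:67332511-67332810, minus strand): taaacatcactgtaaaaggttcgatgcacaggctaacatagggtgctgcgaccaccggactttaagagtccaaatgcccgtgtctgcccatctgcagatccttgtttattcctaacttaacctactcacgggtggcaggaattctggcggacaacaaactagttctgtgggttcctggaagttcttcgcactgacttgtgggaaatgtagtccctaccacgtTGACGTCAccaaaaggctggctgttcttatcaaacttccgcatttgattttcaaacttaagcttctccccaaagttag
Zfp457 promoter (GRCm38.p6, chr13:67306363-67306662, minus strand): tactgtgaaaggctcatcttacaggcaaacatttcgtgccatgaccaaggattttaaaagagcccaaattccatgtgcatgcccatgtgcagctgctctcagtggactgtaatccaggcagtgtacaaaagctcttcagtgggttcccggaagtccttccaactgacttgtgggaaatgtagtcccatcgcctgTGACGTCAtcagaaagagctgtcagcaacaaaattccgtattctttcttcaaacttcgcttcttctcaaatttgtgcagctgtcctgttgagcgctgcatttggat
Zfp473 promoter (GRCm38.p6, chr7:44748342-44748641, minus strand): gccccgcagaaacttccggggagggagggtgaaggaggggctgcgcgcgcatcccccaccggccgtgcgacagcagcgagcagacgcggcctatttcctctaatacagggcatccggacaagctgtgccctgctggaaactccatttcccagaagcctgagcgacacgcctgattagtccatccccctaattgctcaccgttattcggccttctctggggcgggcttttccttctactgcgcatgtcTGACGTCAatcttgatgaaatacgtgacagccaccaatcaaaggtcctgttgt

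The full element stood in the promoter of 7 of the 185 Zfp genes matched to the RefSeq promoter table (3.78%), against 549 of 27025 genes in that table (2.03%). Each of these 7 genes, which are Zfp426, Zfp367, Zfp295 (now Zbtb21), Zfp595, Zfp473, Zfp457 and Zfp523, had a window on the CREM side. Across all genes of both arrays, 34.4% had such a window. Zfp473, which encodes a protein of histone mRNA processing, has the element in 3 overlapping or neighbouring listed promoters. The share of 7 of 7 has an interval of 59.0% to 100%, and among all measured genes with the full element the share was 308 of 369 (83.5%), which lies inside that interval. With the authors' deposited loess-normalised values, 4 of the 7 reached 1. With only the core, TGACG or CGTCA on either strand, 24 of 57 Zfp genes were on the CREM side (42.1%), against 50.4% of all such genes. With neither, the count was 32 of 117 (27.4%), against 29.1% of all such genes. The median highest window of Zfp genes was 1.72 with the full element, 0.92 with the core and 0.74 with neither. The step from neither to the core was seen in Zfp genes outside clusters, with medians of 0.87 and 1.17 (32.0% and 54.8% on the CREM side). In clustered Zfp genes the medians were 0.72 with neither and 0.60 with the core (23.9% and 26.9%).

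**Figure D1:**
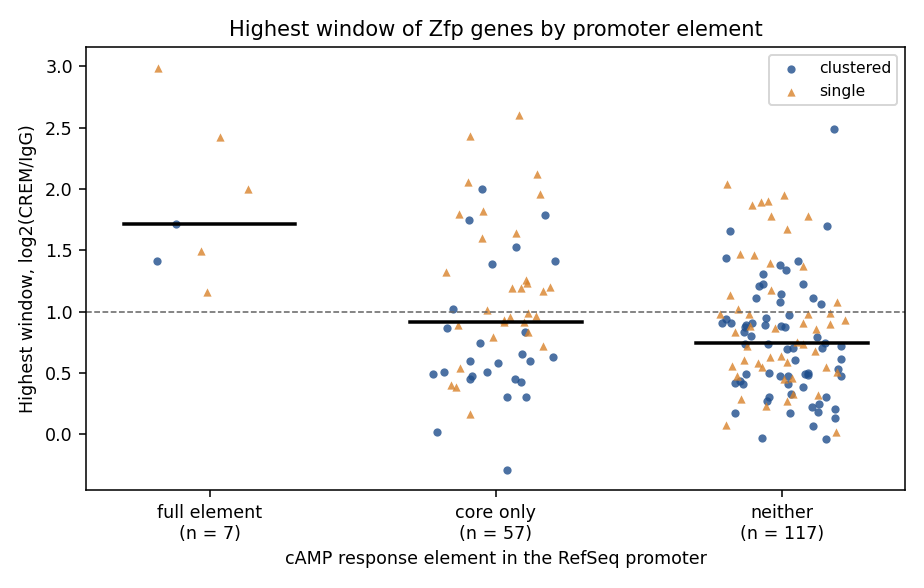
Highest window of each Zfp gene (vertical axis, log2 of CREM over IgG) by what its RefSeq promoter holds, with clustered genes as circles and single genes as triangles. The horizontal bars are medians, at 1.72, 0.92 and 0.74, and the dashed line is at 1. The 7 genes with the full element all lie above it.

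Zfp426, a KRAB zinc finger gene of chromosome 9, had the highest value of the 7. Its top window, chr9:20297548-20297861 (mm9), had probe ratios of 2.99, 2.87 and 3.41, and the median probe's signal was 341 in the IgG channel and 2759 in the CREM channel. A pair of these probes was dim for IgG, meaning not well above background there by the scanner's flag. In the highest window whose probes were all bright for both dyes, which means well above background, the ratios were 1.71, 1.63 and 1.77. The start of Zfp426 itself was low: probes centred 33 and 172 bp after it had -0.46 and -0.44, between 1.67 at 86 bp before it and 1.92 at 287 bp after it. The element lies 22 bases before the start.

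Zfp367 had both a very high and a very low window. The probe that covers its element had a ratio of -2.44, at a GC content of 64.4%. The probe 271 bp after the start had 3.12, and those at 415 and 625 bp had 2.42 and 1.32. The top window, chr13:64253027-64253440 (mm9), was 2.42, and the lowest, chr13:64254085-64254541, was -2.23 with a GC content of 60.7%. In all, 3 Zfp probes held the full element, and they are shown with it in capitals because their own ratios were not high.
Zfp595 probe with the element (mm9, chr13:67433487-67433533): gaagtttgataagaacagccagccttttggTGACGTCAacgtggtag
Zfp593 probe with the element (mm9, chr4:133801543-133801587): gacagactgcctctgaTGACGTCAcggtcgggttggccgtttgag
Zfp367 probe with the element (mm9, chr13:64253752-64253796): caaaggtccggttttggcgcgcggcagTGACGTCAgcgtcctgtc

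The probe of Zfp595 had a ratio of 0.76, that of Zfp593 0.15 and that of Zfp367 -2.44. In Zfp595 the top window lay further into the gene, with 1.72, 1.75 and 1.63 at 458, 587 and 692 bp after the start. In Zfp593, a factor of large ribosomal subunit assembly, the next probes after the one with the element had 2.91 and 3.14. The probe on the element was lower than its neighbours on both sides in Zfp367, and lower than the next ones in Zfp593. In Zfp595 it was higher than the nearest probe upstream (0.32) and lower than those at 458 to 692 bp. The 3 probes on the element were bright for both dyes.

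Zfp473 had 1.54 and 1.49 at 370 and 680 bp after its start, on either side of -0.15 at 493 bp. Zfp457 was above 1 in 5 probes in a row, from 716 bp before to 1020 bp after its start, where the ratio reached 2.42, and all 5 were dim for 1 dye. Zfp523 had a highest window of 1.16, with 1.28 and 1.16 at 1683 and 1790 bp after the start, and a ratio of -2.21 at the start. Zfp295 had a highest window of 2.00, with probe ratios of 2.00, 2.54 and 1.11, and none of its probes lay in the listed promoter.

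**Figure D2:**
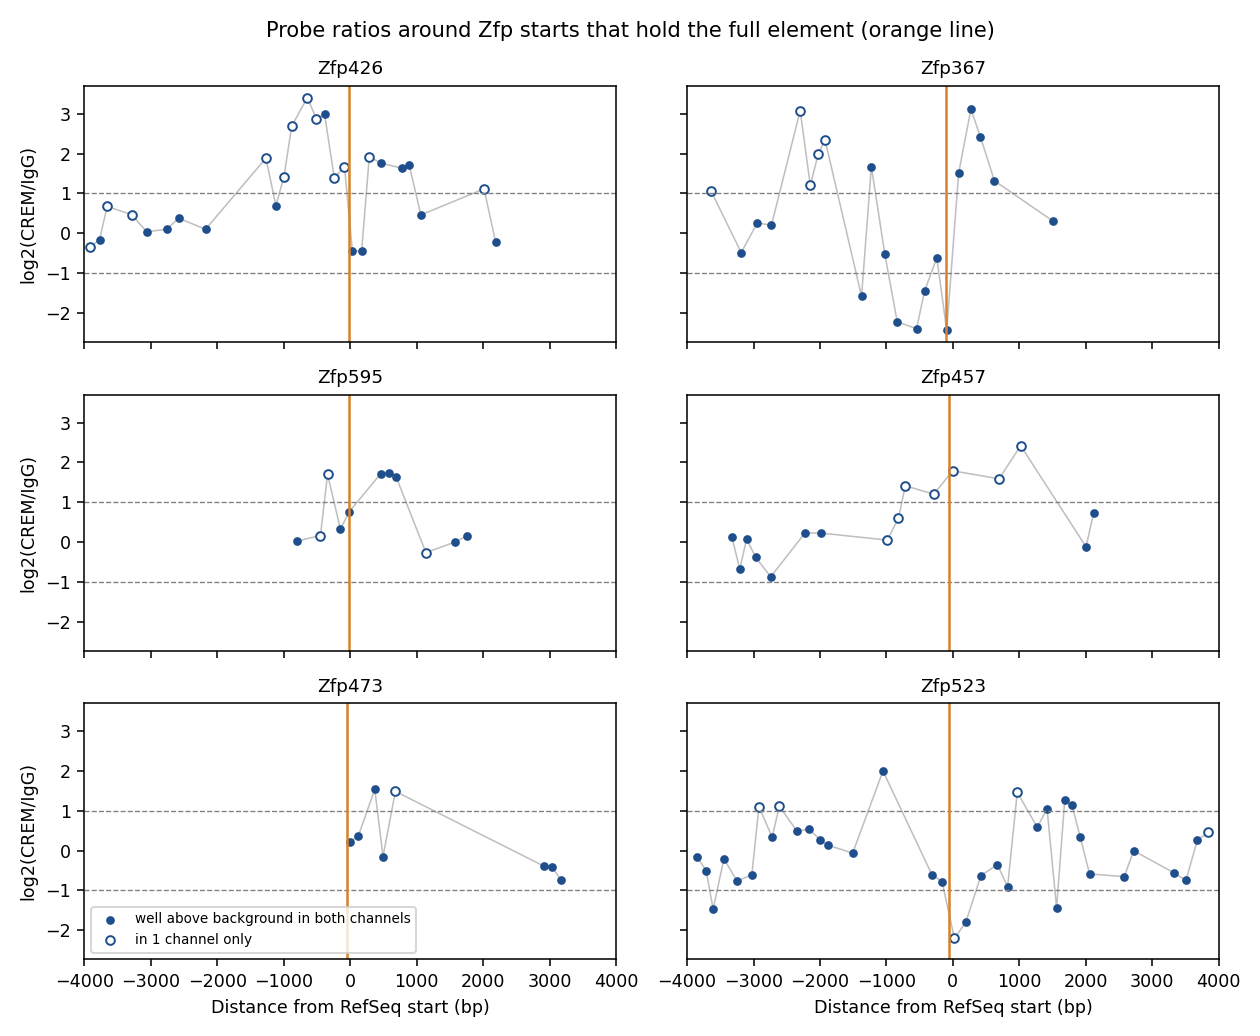
Ratio of each probe (vertical axis, log2 of CREM over IgG) against its distance from the RefSeq start in bp, for 6 Zfp genes with the full element. Filled points were bright for both dyes and open points for 1, the orange line marks the element, and dashed lines are at 1 and -1. In Zfp426 and Zfp367 the high probes stand on one or both sides of a dip at or near the element.

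Low values just after the start were common to Zfp genes and to all genes. Starts were placed on the probe positions by finding probe sequences in the promoters, for 154 Zfp genes. Of Zfp probes from 500 to 250 bp before the start, 27.3% were at 1 or more and 6.67% at -1 or less. From 0 to 250 bp after it, 8.56% were at 1 or more and 33.2% at -1 or less. All genes gave 21.1% and 6.97% at 1 or more in the same places, and 32.3% at -1 or less after the start. The mean GC content of the Zfp probes was 41.8% in the upstream bin and 56.2% after the start. With the median ratio of each GC class subtracted, the median Zfp probe after the start moved from -0.49 to 0.13. Within the 300 bases of the listed promoters, 13.8% of 253 Zfp probes were at 1 or more and 24.1% at -1 or less, beside 11.5% and 22.9% of the promoter probes of all genes. What part GC content has in the low values was not tested.

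**Figure D3:**
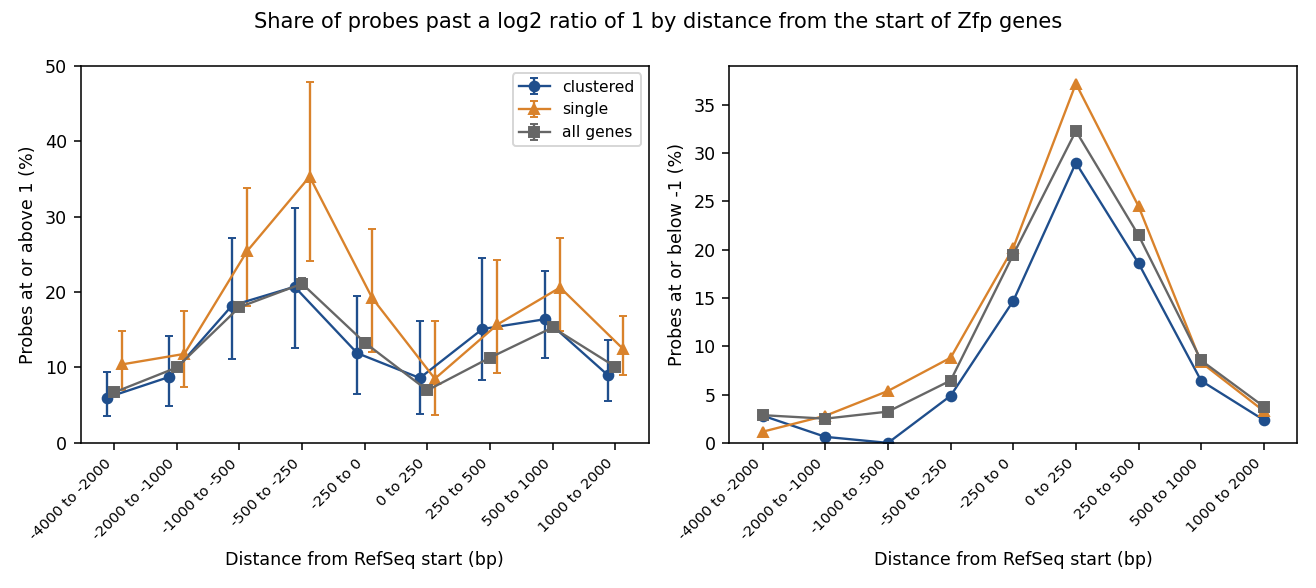
Share of probes at 1 or more (left, with 95% exact binomial intervals) and at -1 or less (right), in percent, by distance from the RefSeq start in bp, for clustered Zfp genes, single Zfp genes and all genes. The CREM side peaks from 500 to 250 bp before the start, at 20.7%, 35.3% and 21.1%, and the IgG side from 0 to 250 bp after it.

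Across all members, 80 of 225 Zfp genes had a window on the CREM side, 35.6% (interval 29.3% to 42.2%). That is near the 34.4% of all genes. On the IgG side the count was also 80, 35.6%, beside 33.6% of all genes. Windows on both sides were present in 31 members (13.8%), beside 12% of all genes, and 96 members had neither. On array 1, 42 of 128 members were on the CREM side (32.8%), beside 33.3% of the genes of that array, and 53 were on the IgG side (41.4%), beside 34.4%. On array 2, 38 of 97 members were on the CREM side (39.2%), beside 35.5%, and 27 on the IgG side (27.8%), beside 32.9%. The median highest window was 0.86 (0.73 to 0.91) for the members and 0.77 for all genes, and the median lowest was -0.66 (-0.79 to -0.57) and -0.76. By windows, 7.52% of the members' 4147 were at 1 or more and 5.11% at -1 or less, beside 5.99% and 4.56% of all windows. Windows on the IgG side had a mean GC content of 58.8%, those on the CREM side 41.9% and all Zfp windows 43.3%. With the GC trend removed, 78 members had a window at 1 or more and 23 at -1 or less, beside 5322 and 2186 of all 17340 genes. With the authors' deposited values, 26 members of array 1 and 18 of array 2 reached 1, beside 1536 and 1424 of all genes.

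Windows with 3 bright probes for both dyes made up 38.8% of the Zfp windows on the CREM side and 84.0% of those on the IgG side. The IgG channel was the dimmer one: 80.3% of Zfp probes on array 1 and 75.9% on array 2 were well above background in it, against 97.7% and 95% for CREM. The threshold fell inside a continuous range of values. Zfp277 (1.01) and Zfp334 (1.02) lay just inside 1, and Zfp574 (0.99) and Zfp821 (0.99) just outside. On the other side Zfp787 (-1.01) and Zfp2 (-1.02) lay just inside -1, and Zfp609 (-0.97) and Zfp316 (-0.93) just outside.

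Single Zfp genes were on the CREM side more often than clustered ones on array 1, and at nearly the same rate on array 2. A member was clustered when another Zfp gene lay under 200 kb away, and the median distance to the nearest was 28.4 kb in clusters and 3905 kb outside. Of 114 clustered genes, 31 were on the CREM side (27.2%, interval 19.3% to 36.3%), and of 111 single genes 49 (44.1%, 34.7% to 53.9%). The median highest window was 0.73 (0.60 to 0.84) for clustered and 0.96 (0.86 to 1.08) for single genes, a difference of -0.23. On array 1 the counts were 14 of 70 clustered and 28 of 58 single genes (48.3%), with medians of 0.65 and 0.99. On array 2 they were 38.6% and 39.6%, with medians of 0.86 and 0.92. Whether the arrays differ in this was not tested. The lowest windows had medians of -0.66 and -0.67, and 36 clustered (31.6%) and 44 single genes (39.6%) were on the IgG side. On array 1, single genes were the more often low ones too: 30 of 58 (51.7%, interval 38.2% to 65.0%) were on the IgG side, against 23 of 70 clustered genes (32.9%, 22.1% to 45.1%), with median lowest windows of -1.03 and -0.70. On array 2 the counts were 14 of 53 (26.4%) and 13 of 44 (29.5%). Mean GC content was 42.2% and 42.5%. Upstream of the start the same order was found. From 500 to 250 bp upstream, 20.7% of clustered and 35.3% of single genes' probes were at 1 or more (intervals 12.6% to 31.1% and 24.1% to 47.8%), beside 21.1% of all genes' probes. Just after the start the shares were nearly equal, 8.6% and 8.51% from 0 to 250 bp and 15.1% and 15.7% from 250 to 500 bp. Inside the listed promoters the shares were 10.8% and 16.5%, and at -1 or less 17.5% and 30.1%.

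Clustered genes also had fewer windows, 14 against 21 in the median, and a gene with more windows has more chances of a high one. Among genes with up to 9 windows, 6 of 35 clustered (17.1%) and 9 of 15 single genes (60.0%) were on the CREM side, beside 18% of all genes of that size. With 10 to 19 windows the shares were 19.6% and 35.1%, beside 34.3%. With 20 or more they were 48.5% and 45.8%, beside 39.5%, where the clustered genes had the higher share. By windows, 6.04% of those of clustered and 8.65% of those of single genes were on the CREM side, and 5.15% and 5.09% on the IgG side. The order on the CREM side differed between arrays. On array 1 the shares were 3.01% for clustered and 10.1% for single genes, and on array 2 they were 11.2% and 7.07%. Chromosome 7 holds 64 members, 53 of them clustered. There 11 of 53 clustered (20.8%) and 5 of 11 single genes (45.5%) were on the CREM side. Without chromosome 7 the counts were 20 of 61 (32.8%) and 44 of 100 (44.0%). With the GC trend removed, 31 clustered and 47 single genes were at 1 or more. These bands and subsets were chosen after the data were seen.

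**Figure D4:**
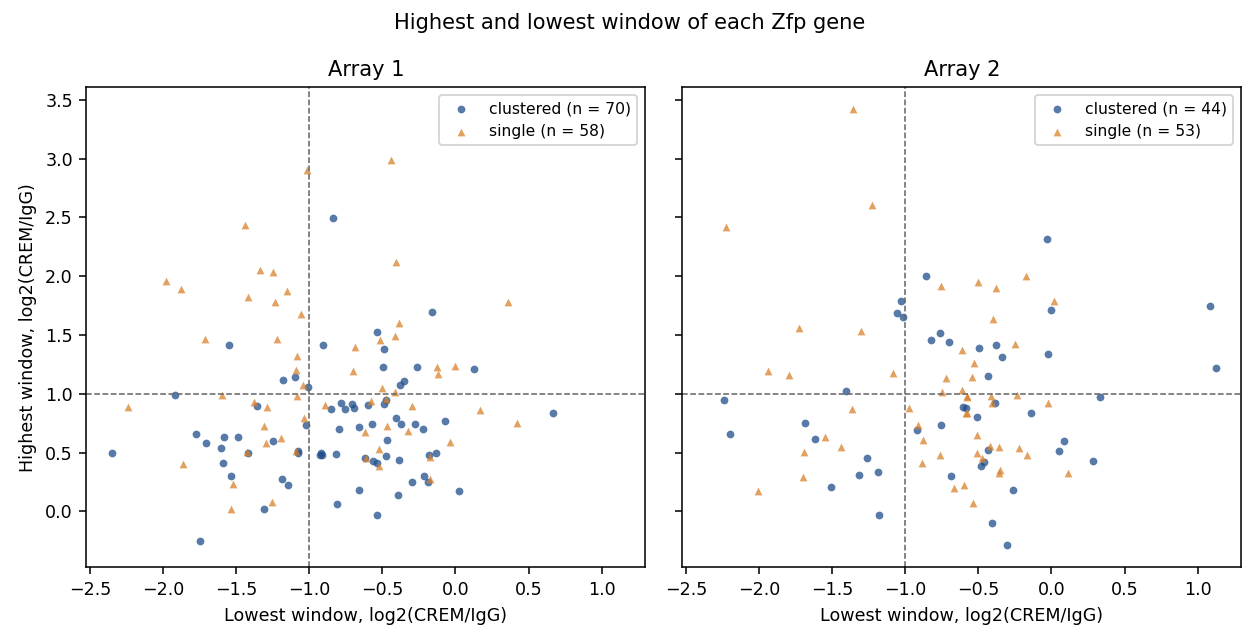
Highest window (vertical axis) against lowest window (horizontal axis) of each Zfp gene, in log2 of CREM over IgG, for array 1 (70 clustered, 58 single) and array 2 (44 clustered, 53 single). Dashed lines are at 1 and -1. On array 1 most of the points above the upper line are single genes, 28 against 14, and on array 2 they are 21 and 17.

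There were 31 clusters, of which 14 with 3 or more genes held 81 members, and the median highest window of those 14 ranged from 0.42 to 1.39. The cluster on chromosome 13, chr13:67181250-67657595 (mm9), holds KRAB zinc finger genes and had 6 of 9 measured members at 1 or more and 0 at -1 or less. Of its 90 windows, 33 were on the CREM side (36.7%), beside 5.99% of all windows. Its median highest window was 1.39. The values were 2.32 in Zfp87, 1.75 in Zfp58, 1.72 in Zfp595, 1.41 in Zfp457, 1.39 in Zfp748 and 1.22 in Zfp458. Below 1 were Zfp759 (0.60), Zfp455 (0.39) and Zfp708 (-0.29), the last with 2 windows. In Zfp58 and Zfp458, each with 9 windows or fewer, even the lowest window was above 1, at 1.08 and 1.12. Of the cluster's 33 windows on the CREM side, 15 (45.5%) had 3 probes bright for both dyes. With the authors' deposited values, 3 of the 9 reached 1. Without this cluster, 25 of 105 clustered genes were on the CREM side (23.8%), and on array 2 the share of clustered genes was 11 of 35 (31.4%).

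The top window of Zfp87, chr13:67627324-67627653, is printed because its probes were bright for both dyes and hold no TGACG or CGTCA. Probe 2, with the highest ratio, does hold TGACATCA, which differs from the full element by 1 base. The ratios of the window were 2.11, 2.81 and 2.32, and the median probe's signal was 1667 for IgG and 8423 for CREM.
Zfp87 probe 1 (mm9, chr13:67627324-67627383): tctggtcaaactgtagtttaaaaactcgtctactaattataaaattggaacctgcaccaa
Zfp87 probe 2 (mm9, chr13:67627464-67627523): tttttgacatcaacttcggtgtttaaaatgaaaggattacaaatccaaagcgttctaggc
Zfp87 probe 3 (mm9, chr13:67627594-67627653): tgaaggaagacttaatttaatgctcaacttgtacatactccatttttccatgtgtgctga

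The promoters of 3 members of the chromosome 13 cluster share a stretch of 25 bases. It is found in 3 of the 32851 listed promoters, those of Zfp457, Zfp458 and Zfp595. In each case 8 more bases separate it from the element or from the letters in its place, given in capitals.
Zfp457 promoter stretch: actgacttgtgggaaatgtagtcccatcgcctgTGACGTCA
Zfp595 promoter stretch: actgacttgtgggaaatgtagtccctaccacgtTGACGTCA
Zfp458 promoter stretch: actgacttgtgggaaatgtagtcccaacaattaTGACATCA

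Zfp458 differs from the element by G5A, counted from 1 at the 5′ end of the element, and its highest window was 1.22. The core was present in the promoters of Zfp58, Zfp748 and Zfp759 and in 1 of 2 listed for Zfp708, and absent from that of Zfp455. The arrays' probes themselves shared little: no probe of a Zfp gene had 25 bases in common with a probe of another member, on either strand, and 99 of 5636 (1.76%) had 16. Their median ratio was 0.20, against 0.06 for the other probes.

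The cluster on chromosome 6, chr6:47778399-47873098 (mm9), had its called windows on the other side. All 4 of its members, Zfp786, Zfp398, Zfp282 and Zfp212, reached the IgG side and 0 the CREM side. Their lowest windows were -1.78, -2.35, -1.70 and -1.59, and their highest between 0.41 and 0.66. With the GC trend removed, the lowest windows of Zfp398, Zfp282 and Zfp212 were -1.11, -1.14 and -1.31, and that of Zfp786 was -0.37. With normexp background correction, 1 of the 4 was at -1 or less. The lowest window of Zfp398, chr6:47785628-47785952, is printed as the lowest of any member. It had ratios of -1.62, -2.35 and -2.42 and a GC content of 68.9%.
Zfp398 probe 1 (mm9, chr6:47785628-47785672): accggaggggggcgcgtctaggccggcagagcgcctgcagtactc
Zfp398 probe 2 (mm9, chr6:47785781-47785825): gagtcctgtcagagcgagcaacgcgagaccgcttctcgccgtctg
Zfp398 probe 3 (mm9, chr6:47785908-47785952): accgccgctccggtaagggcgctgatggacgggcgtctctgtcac

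A cluster of 4 on chromosome 7 (Zfp628, Zfp579, Zfp524 and Zfp784, chr7:4866017-4998157) also had 0 members at 1 or more, and 3 at -1 or less. Of all genes, 34.4% were at 1 or more and 33.6% at -1 or less. With the GC trend removed, 0 of these 4 members were at -1 or less. The largest cluster, 12 genes at chr7:24867805-25379063, had 2 on either side. On the CREM side were Zfp94 (1.53) and Zfp93 (1.21), and on the IgG side Zfp575 (-1.75) and Zfp428 (-1.36). With the GC trend removed, this cluster had 2 members at 1 or more and 0 at -1 or less. Its median highest window was 0.47, from -0.25 in Zfp575 upwards. The cluster of 10 at chr7:30549403-30954706 had Zfp14 (1.42), Zfp27 (1.11) and Zfp82 (1.08) on the CREM side and none at -1 or less, since the lowest value was -0.91, also in Zfp14. On chromosome 16, Zfp263 (2.00) and Zfp597 (1.34) were high and Zfp174, between them on the chromosome, was 0.18.

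**Figure D5:**
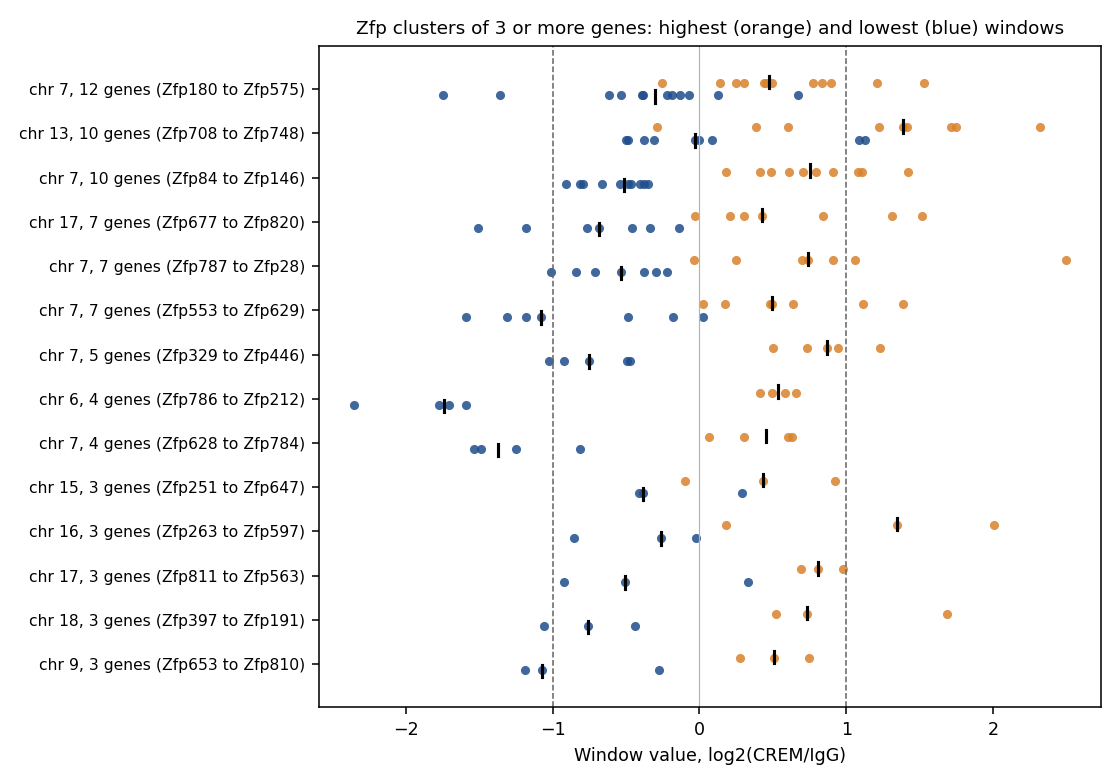
Highest (orange) and lowest (blue) window of each gene, in log2 of CREM over IgG, in the 14 Zfp clusters of 3 or more genes, 1 row a cluster. Black ticks are medians and dashed lines are at 1 and -1. The chromosome 13 row lies furthest to the right, with a median highest window of 1.39, and the chromosome 6 row has the lowest median lowest window, -1.74.

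On chromosomes 1 and 4, where each member is a single gene, the highest windows were high nearly throughout. On chromosome 1 all 4 members reached 1: Zfp451 (1.96), Zfp238 (1.47), Zfp281 (1.40) and Zfp142 (1.19). Of all genes of that chromosome, 32.7% did, and these 4 members had 30 windows in the median. The interval of their share is 39.8% to 100%. Of their 10 windows at 1 or more, 2 had 3 probes bright for both dyes. On chromosome 4, 5 of 6 did: Zfp593 (2.91), Zfp189 (2.12), Zfp37 (1.78), Zfp691 (1.78) and Zfp46 (1.598), while Zfp69 had 0.89. Of all genes of chromosome 4, 33.5% reached 1. The interval of the members' share is 35.9% to 99.6%, and 13 of their 37 windows at 1 or more had 3 probes bright for both dyes. In Zfp189 the probe ratios were 1.88, 3.48 and 2.12, but the signal of the median probe was only 61 for IgG and 269.9 for CREM. On chromosome 6, 8 of 11 members reached -1 (72.7%, interval 39.0% to 94.0%, beside 31.4% of all its genes), including Zfp422 (-1.25), whose highest window was 0.08, and Zfp775 (-1.60). The 4 genes of the cluster described above are among these 8. With the GC trend removed, 5 of the 11 members reached -1. Zfp239 (1.69), Zfp248 (1.46), Zfp637 (1.41) and Zfp384 (1.32) were the high ones there. These chromosomes were singled out after their values were seen.

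Some members carry another symbol in RefSeq, and a few of these have a role outside DNA binding. Ring finger and ubiquitin ligase genes among them were Zfp313 (Rnf114), with 1.89 and -1.88, Zfp364 (Rnf115), with 0.51 and -1.43, Zfp650 (Ubr3), with 0.98 and -1.08, and Zfp179 (Rnf112), with 0.07 and -0.54. Zfp192 (Zkscan8) had -2.24 and a highest window of 0.95, and its neighbour Zfp187 (Zscan26) had 1.44 and -0.70. Zfp259 (Zpr1) had 0.97 and Zfp828 (Champ1), a protein of chromosome segregation, 1.05.

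Among windows of 3 probes bright for both dyes, the highest on array 1 were in Zfp667 (2.35), Zfp691 (1.78), Zfp426 (1.71), Zfp451 (1.71) and Zfp655 (1.53). On array 2 they were in Zfp219 (2.53), Zfp367 (2.42), Zfp87 (2.32), Zfp295 (2.00) and Zfp263 (2.00). The lowest on array 1 were in Zfp398 (-2.35), Zfp326 (-2.24), Zfp451 (-1.98), Zfp574 (-1.92) and Zfp313 (-1.88), and on array 2 in Zfp192 (-2.24), Zfp367 (-2.23), Zfp622 (-2.01), Zfp598 (-1.94) and Zfp521 (-1.72). With dim probes allowed, Zfp438 had the highest value, 3.42, followed by Zfp426 (2.99) and Zfp593 (2.91).

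The window of Zfp667, chr7:6235290-6235664 (mm9), is shown because its first probe holds the core, in capitals, and had the highest ratio of the 3, 2.51. The others had 2.35 and 0.89.
Zfp667 probe 1 (mm9, chr7:6235290-6235336): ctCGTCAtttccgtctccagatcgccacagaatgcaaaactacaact
Zfp667 probe 2 (mm9, chr7:6235432-6235486): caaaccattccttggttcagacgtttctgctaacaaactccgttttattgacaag
Zfp667 probe 3 (mm9, chr7:6235620-6235664): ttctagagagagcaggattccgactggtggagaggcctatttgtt

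The window of Zfp219, a DNA-binding partner of SOX9 in cartilage, lies at chr14:52642675-52643031 and had ratios of 2.65, 2.53 and 0.71. Its first probe also holds the core. Of the 10 highest windows named above for the arrays, 3 held the core. It lay in the probe with the highest ratio in Zfp667 and Zfp219, and in the one with the lowest, -0.70, in Zfp655.
Zfp219 probe 1 (mm9, chr14:52642675-52642734): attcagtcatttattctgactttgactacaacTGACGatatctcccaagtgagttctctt

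The core was found in high and in low windows. It lay in 14.1% of the 312 Zfp windows on the CREM side (interval 10.4% to 18.5%), in 16.5% of the 212 on the IgG side (11.8% to 22.2%) and in 4.38% of the 1530 between -0.25 and 0.25 (3.41% to 5.53%). All genes gave 10.5%, 14.1% and 5.34%. Neighbouring windows share probes, so the same probe with the core can be counted in several windows. The intervals treat the windows as independent and are therefore too narrow. The core contains a CpG, and low windows are rich in GC, as given above. Of the 80 members with a high window, 11 had the core in their highest window (13.8%), against 11 of the other 145 (7.59%). On the IgG side, 16 of 80 members had the core in their lowest window, against 10 of the other 145.

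High and low windows were often neighbours. In the 31 members with windows on both sides, the highest and the lowest lay 1090 bp apart in the median, and in 21 of them at most 1500 bp. The lowest was the more GC-rich in 30 of 31, with a mean GC content of 59.6% against 40.7%. All 2085 genes with windows on both sides gave 1060 bp, 59.8% and 40.7%. In Zfp451, which extends SUMO chains on proteins, a highest window of 1.96 lay 1194 bp from a lowest of -1.98. Of these 31 members 8 were clustered and 23 single.

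By role, factors that bind promoters in many cell types had the highest median of the Zfp lists. Of 7 listed, 6 were measured, 5 were at 1 or more and 4 at -1 or less, beside 34.4% and 33.6% of all genes. The intervals are 35.9% to 99.6% and 22.3% to 95.7%. With the GC trend removed, 5 of these genes were at 1 or more and 1 at -1 or less. Their median highest window was 1.66, beside 0.77 for all genes, and they had 27.5 windows in the median, beside 19 for all genes. Zfp143, an activator of small nuclear RNA and many other promoters, had 2.44, Zfp64 had 2.05, Zfp263 2.00, Zfp384 1.32 and Zfp148 1.26. Zfp161 had 0.87. Members that act on RNA, ribosomes or ubiquitin had 10 of 11 listed genes measured, with 5 at 1 or more and 6 at -1 or less, beside 34.4% and 33.6% of all genes. The intervals are 18.7% to 81.3% and 26.2% to 87.8%. Above 1 were Zfp593 (2.91), Zfp36 (1.68), the mRNA decay factor tristetraprolin, Zfp207 (1.64), a protein of the mitotic spindle, Zfp598 (1.19), a ubiquitin ligase for collided ribosomes, and Zfp330 (1.17). Zfp622, a factor of large ribosomal subunit maturation, had no high window (0.17) and a lowest of -2.01. With the GC trend removed, 6 genes of this list were at 1 or more and 1 at -1 or less.

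Germ cell genes were few, and the intervals of their counts hold the shares of all genes. Of 10 listed, 8 were measured. At 1 or more were 2 (interval 3.19% to 65.1%) and at -1 or less 3 (8.52% to 75.5%), beside 34.4% and 33.6% of all genes. The median highest window was 0.75, beside 0.77. The high ones were Zfp37 (1.78), expressed in spermatids, and Zfp105 (1.02). All 3 probes of either window were dim for IgG. Of the list's 3 windows at 1 or more, 0 had 3 probes bright for both dyes. Zfp541, needed for the end of meiotic prophase, lay between -0.17 and 0.27. Zfp42, the pluripotency marker Rex1, had 0.90, and Zfp628, a factor of spermatid development, 0.60 and a lowest window of -1.25. Of 7 listed KRAB genes that silence repeats or imprints, 5 were measured. Zfp819 was on the CREM side (1.24), and 0 of the 5 had a window at -1 or less. The intervals, 0.505% to 71.6% and 0% to 52.2%, hold the shares of all genes, 34.4% and 33.6%. Zfp57, which keeps imprints methylated, had 0.98, Zfp809, which silences retroviruses, 0.74, and Zfp445 0.51.

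Genes of pluripotency and development had 10 of 15 listed genes measured, with 4 at 1 or more and 5 at -1 or less, beside 34.4% and 33.6% of all genes, and a median of 34.5 windows. The intervals are 12.2% to 73.8% and 18.7% to 81.3%. With the GC trend removed, 4 were at 1 or more and 2 at -1 or less. Zfp191 had 1.68, Zfp521 1.56, Zfp238 1.47 and Zfp281 1.40. Zfp503 and Zfp536 were low without a high window, with lowest values of -1.70 and -1.86 against highest of 0.29 and 0.40. Of 16 partner genes of KRAB proteins, which are no Zfp genes, 10 were at 1 or more (62.5%, interval 35.4% to 84.8%) and 6 at -1 or less (37.5%), beside 34.4% and 33.6% of all genes. Their median highest window was 1.12. Trim28, which encodes the KRAB corepressor, had 1.37 and -2.10, Smarcad1 had 2.18 and Chd4 1.54, and Setdb1, with 2 windows, 0.30.

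Against other families, 149 of 795 olfactory receptor genes (Olfr), which also sit in clusters, reached 1 (18.7%) and 84 reached -1 (10.6%). Their probes were poorer in GC, 36.2% against 42.4% for the Zfp genes. Of 36 Zbtb, Zscan and Zkscan genes, zinc finger genes with a BTB or SCAN domain, 17 reached 1 (47.2%, interval 30.4% to 64.5%) and 12 reached -1 (33.3%), beside 34.4% and 33.6% of all genes.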

How the data were processed

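The arrays are Agilent promoter arrays, and the deposited scanner files give spot brightness as intensity in each channel, which per the file headers is background-subtracted and dye-normalised in the processed signal. The authors also deposited log2 ratios in a table. Their scale and centring were recovered by recomputation: mean signal minus median background with limma's loess matched them in scanner row order with a correlation of 1. R 2.10.1 and limma are named in the submitters' processing notes. Probe positions are mm9. Array medians were shifted by 0.02 on both arrays.

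Computed here, with Python 3.11.15, pandas 2.3.3, scipy 1.17.1, R 4.3.3 and limma 3.58.1, were log2 of processed Cy5 over Cy3, centred on the array median with no loess. Control spots, outliers, unplaced probes and probes well above background in neither channel were left out, which left 228277 and 226404 probes, 3185 and 2451 of them of Zfp genes. The small number of arrays, 1 per gene, limits the precision. Windows belong to the gene of their middle probe. The GC trend was the median ratio of each 2% class with at least 50 probes. Names with a letter after the number (13) were left out. RefSeq (GRCm38.p6) gave current symbols for 212 members and updated 17, and 185 matched a promoter. Of promoters hit by more than 1 probe, 4345 of 4354 ran in the order of their strand.

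Named genes were, per array, the 5 highest and 5 lowest windows whose probes were all well above background for both dyes, extremes of the 3 largest clusters, members of the role lists and those next to the threshold. Members, lists and rules were chosen with earlier results of these data known. The promoter and distance descriptions, and the genes and clusters named for them, were chosen after the data were seen. Alternatives were other background corrections, loess, the authors' values, GC removal, other filters, windows, gaps, names, thresholds and cluster distances. The window and cluster code was tested on simulated data. Beyond the RefSeq promoters, no genome or protein sequence was used here, so exons and finger counts are not given, and KRAB is named from background knowledge of the genes.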

Additional observations from a re-analysis of the deposited data

How the results depend on the processing

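Of 150 values recomputed for the main results under other settings, 109 kept their direction and stayed near the main value, 38 moved and 3 reversed. Of 666 values for single genes, 580 stayed within the range of their 3 probes, 86 moved beyond it, and 0 of those of at least 1 in size changed sign. Below that size, 15 values of 7 windows changed sign, such as the lowest windows of Zfp595 (up to 0.84) and Zfp473 (up to 0.37). The counts and medians of the members moved in the same direction as those of all genes, though not always to the same degree.

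On array 1, members at 1 or more numbered 24 with normexp background correction (offset 50), 10 with loess on normexp-corrected signals, 26 with the authors' values, 27 with probes bright for both dyes alone and 17 at a threshold of 1.5. On array 2 they numbered 10 with loess on normexp, 18 with the authors' values, 25 with windows of 5 probes and 19 at 1.5. At -1 or less, array 1 had 2 with normexp, 15 with loess on normexp, 11 with the GC trend removed, 25 with windows of 5 and 18 at the stricter threshold. Array 2 had 6, 7, 12, 13 and 13 under the same settings.

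The median highest window was 0.56 with normexp, 0.29 with loess on normexp, 0.58 with the authors' values, 0.63 with bright probes alone and 0.58 with windows of 5. The median lowest was -0.30, -0.26, -0.53, -0.57 and -0.45 under those settings and -0.49 with the GC trend removed. Of the 7 genes with the full element, 4 reached 1 with normexp, 4 with loess on normexp and 4 with the authors' values. Of the chromosome 13 cluster, 2 reached 1 with loess on normexp and 3 with the authors' values. Of the chromosome 6 cluster, 1 was at -1 or less with normexp, 1 with loess on normexp and 2 with windows of 5. The causes of these moves were not tested.

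The difference of clustered minus single genes in the median highest window stayed below 0 in every setting run, from -0.34 on array 1 alone to -0.06 on array 2 alone. That in the median lowest window was 0.01. It ranged up to 0.32 on array 1 alone, and turned to -0.06 among genes with 10 or more windows, -0.045 without the chromosome 13 cluster and -0.046 without chromosome 7, settings chosen after the data were seen. No paired analysis was possible because each group is 1 array with no replicate. The dim IgG channel is a limit on the CREM side, where 38.8% of the Zfp windows had 3 bright probes for both dyes.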
